A study of Mus musculus with 4 samples.

Results

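The ephrin, Slit-Robo and netrin families are the classical contact-mediated and secreted cues that steer growing axons. The genes described here are those whose single symbol in the array's probe annotation begins with Epha, Ephb, Efna, Efnb, Slit or Robo with a digit, or Unc5, together with Dcc, Neo1, Ntn1, Ntn3, Ntn4 and Ntn5. This rule found 40 genes on 43 probe sets, of 19938 genes with a single symbol on the array, and each gene was read from its probe set with the highest mean. Of the 40 genes, 32 reached the filter on low values, a mean of 7.11 over the arrays on the log2 scale, as did 11013 genes of the whole array. The members that fell below it are Efna1, Epha1, Epha2, Ntn5, Robo3, Robo4, Unc5b and Unc5cl. A pair of symbols shares only its prefix with the netrin receptors: Unc50 is related to a worm gene needed for the trafficking of acetylcholine receptors, and Unc5cl resembles the intracellular end of the Unc5 proteins. With these left out the rule holds 38 genes, of which 31 were kept.

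The arrays measured fetal brain tissue of C57BL/6J mice in 4 groups of 1 array each: hippocampus after ethanol, hippocampus after PBS, forebrain after ethanol and forebrain after PBS. Dams of the ethanol groups received ethanol by the intragastric route for 5 days, embryonic day 8 to 12, at 2.9 g per kg and day in a 15% solution. Dams of the PBS groups received phosphate-buffered saline (PBS) in the same way, and all tissue was taken on embryonic day 18. The labels do not say whether embryos were pooled or which litters they came from, so differences between litters and the effect of ethanol cannot be told apart. Since a group is 1 array, differences within a tissue come without a p-value or any replicate behind them, and precision is limited by how few arrays there are.

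Ephrins are membrane-bound ligands, the A class held by a lipid anchor and the B class crossing the membrane, and Eph receptors are tyrosine kinases that usually repel an axon on contact with a cell that bears the ligand. Slit proteins are secreted and act through Robo receptors, mainly as repellents, while netrins attract axons through Dcc and repel them through Unc5 receptors. In the developing forebrain these systems order the map of hippocampal axons in the septum, guide thalamic and cortical axons and help the large commissures to cross the midline.

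All values are the deposited log2 values, and a difference of 0.58 equals 1.5-fold. Array medians were 7.11 to 7.13 when every probe set was counted. Among the genes kept, however, the median was 8.57 for hippocampus after ethanol and 8.66 to 8.68 for the other arrays, so the median of the hippocampal ethanol differences was -0.08 rather than 0. Markers of hippocampal fields did not set the tissue labelled hippocampus apart: of 13 listed genes 8 were kept, 4 of them higher and 4 lower than in forebrain over both treatments (median -0.02), and 0 passed limma's test in either direction. By the same estimate 61.2% of all genes kept were lower in hippocampus, and 1.13% passed the test. In whole tissue, fewer cells of a type and less RNA per cell cannot be told apart.

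After maternal ethanol the guidance genes with the largest differences in the hippocampus array were the ephrin-A receptor gene Epha3, the netrin receptor gene Unc5d and the ligand gene Efna3, which read lower, and netrin 1 (Ntn1) and Epha10, which read higher. Of the 32 genes kept, 24 (75%) were lower and 8 higher, a share near that of the whole array, where 69.3% of all genes kept were lower and 30.7% higher. The median of the members was -0.12. Epha3 was the 1 member at least 1.5-fold lower, against 0.427% of all genes kept, and 0 members were at least 1.5-fold higher, against 0.49%. At a smaller log2 difference of 0.32, 5 members were lower (Epha3, Unc5d, Efna3, Unc5a and Efnb1, against 5.95% of all genes) and 2 higher (Ntn1 and Epha10, against 3.17%). At 2-fold 0 members were lower or higher, against 0.00908% and 0.0545%. In forebrain 22 members were lower and 10 higher (median -0.07, with 53.8% of all genes lower and 46.1% higher), and 0 members reached 1.5-fold, against 0.0454% of all genes higher and 0.0272% lower. At a log2 difference of 0.32, too, 0 members were higher or lower in forebrain, against 0.336% and 0.191%. The lean toward lower values in hippocampus depends on the scale: with each array centred on its median over the genes kept, 18 members were lower and 14 higher (median -0.02), and 43.6% of all genes were lower.

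**Figure D1:**
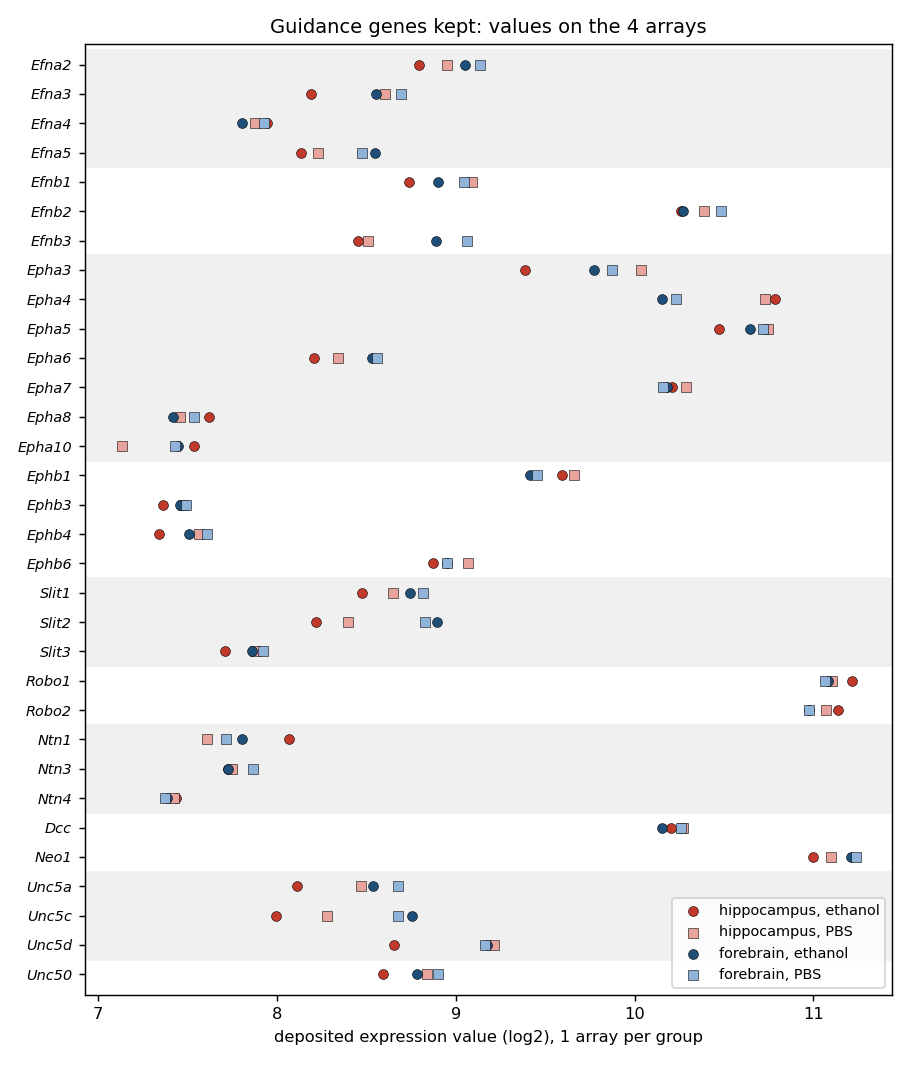
Deposited log2 values (x axis) of the 32 guidance genes kept (rows, grouped by family in alternating bands) on the arrays of hippocampus after ethanol and PBS and forebrain after ethanol and PBS, 1 point per array. Epha4 separates by tissue, with 10.79 and 10.73 in hippocampus against 10.15 and 10.23 in forebrain, whereas Epha3 has its lowest point, 9.39, in hippocampus after ethanol.

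The bases from 250 to 21 before the annotated start are given for Epha3, Epha4 and Unc5c, 5′ to 3′ along the gene's strand. They come from RefSeq on build GRCm38.p6. Of these genes only Epha4 passed a limma test, that between the tissues. Efnb3 and Slit2, which also passed it, are not shown. Capitals mark the letters GGGCGG (the GC box) and CCAAT (the CCAAT box) on either strand, which do not overlap here.
Epha3, chr16:63864196-63864425, minus strand: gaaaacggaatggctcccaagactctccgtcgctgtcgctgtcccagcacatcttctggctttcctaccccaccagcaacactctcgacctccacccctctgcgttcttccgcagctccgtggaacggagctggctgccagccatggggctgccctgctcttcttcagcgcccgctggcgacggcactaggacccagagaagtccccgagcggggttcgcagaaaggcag
Epha4, chr1:77515109-77515338, minus strand: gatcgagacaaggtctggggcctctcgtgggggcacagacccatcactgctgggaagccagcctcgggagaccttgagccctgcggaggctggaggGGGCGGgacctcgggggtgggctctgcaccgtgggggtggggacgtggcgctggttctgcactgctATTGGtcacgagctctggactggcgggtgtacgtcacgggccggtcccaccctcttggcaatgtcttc
Unc5c, chr3:141465314-141465543, plus strand: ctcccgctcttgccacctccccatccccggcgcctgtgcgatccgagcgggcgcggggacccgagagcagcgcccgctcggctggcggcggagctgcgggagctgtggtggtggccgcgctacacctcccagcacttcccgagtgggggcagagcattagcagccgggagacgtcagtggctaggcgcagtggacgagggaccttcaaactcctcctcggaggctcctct
All 3 stretches are rich in G and C, at 63.5% in Epha3, 67.4% in Epha4 and 70.9% in Unc5c. The Epha4 stretch holds 1 GGGCGG and 1 CCAAT match (read on the other strand as ATTGG), and the stretches of Epha3 and Unc5c hold 0 of either. Neither CANNTG, the E-box core, nor TATAAA was found in any of them on either strand. Among 32851 annotated starts of all genes, 29.8% of stretches of the same 230 bases hold GGGCGG, 32.2% CCAAT, 63.5% CANNTG and 11.8% TATAAA. Of 40 starts annotated for 35 of the guidance genes, 27 hold GGGCGG, 13 CCAAT, 16 CANNTG and 2 TATAAA. A match is a run of letters and was not tested as a binding site.

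Among the ephrin ligands, 6 of the 7 genes kept were lower after ethanol in hippocampus and 6 of 7 in forebrain, with medians of -0.13 and -0.14. Of all genes kept, 69.3% were lower in hippocampus and 53.8% in forebrain. With arrays centred on the genes kept, 4 of 7 ephrins were lower in hippocampus and 6 of 7 in forebrain. The medians over all genes were then 0.02 and 0.01. Efna3, a lipid-anchored ephrin, read 8.19 in hippocampus after ethanol and 8.60 after PBS, and 8.56 in forebrain after ethanol and 8.69 after PBS. Its hippocampal difference of -0.41 was the largest in the ligand family, and the ethanol array there was the single low one. Efnb1, a transmembrane ephrin whose loss disturbs skull development in mice, read 8.74 after ethanol and 9.09 after PBS in hippocampus, and 8.90 and 9.05 in forebrain. It was lower by 0.35 and by 0.14 on the log2 scale. Efnb2, also a ligand of blood vessel formation, read 10.26 after ethanol and 10.39 after PBS in hippocampus, and 10.27 and 10.49 in forebrain. Here the forebrain difference, -0.21, was larger than the hippocampal one, -0.13, and both ethanol arrays lay below both PBS arrays.

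Efnb3, a midline repellent of corticospinal axons, read 8.45 after ethanol and 8.51 after PBS in hippocampus, against 8.89 and 9.07 in forebrain. Its ethanol differences were -0.06 in hippocampus, which turned to 0.04 with arrays centred on the genes kept, and -0.18 in forebrain. Efna2, an ephrin of sensory maps, read 8.79 after ethanol and 8.95 after PBS in hippocampus and 9.05 and 9.14 in forebrain. Efna5, the best studied repellent of topographic maps, read 8.13 after ethanol and 8.23 after PBS in hippocampus and 8.55 and 8.47 in forebrain. For both of these the hippocampus arrays lay below the forebrain arrays, whichever the treatment. Efna4 was the ephrin that read higher after ethanol in hippocampus, by 0.07, and it was lower in forebrain, at -0.13.

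Eph receptor genes kept numbered 11, and 8 of them were lower after ethanol in hippocampus and 9 in forebrain. Of all genes kept 69.3% and 53.8% were lower, so the hippocampal count was near the share of all genes. With arrays centred on the genes kept the receptor counts became 6 and 8, with medians over all genes of 0.02 and 0.01. Epha3, a receptor of A-class ephrins, had the largest ethanol difference of all members: 9.39 after ethanol against 10.03 after PBS in hippocampus, which is 0.639 times the PBS level. In forebrain the same gene read 9.78 after ethanol and 9.87 after PBS. The hippocampus ethanol array was thus the lowest and the hippocampus PBS array the highest of the 4, and the difference of -0.65 ranked 26 from the lowest among 11013 genes. The value was -0.58 after quantile normalization and -0.55 with arrays centred on the genes kept, both short of 1.5-fold. Epha5, a receptor for the map of hippocampal axons in the septum, read 10.47 after ethanol and 10.75 after PBS in hippocampus, and 10.64 and 10.72 in forebrain. Its difference was -0.27 in hippocampus and -0.08 in forebrain.

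Epha10 and Epha8 went the other way in hippocampus. Epha10, a receptor without an active kinase, read 7.53 after ethanol and 7.13 after PBS there, and 7.44 and 7.43 in forebrain. The hippocampus PBS array was the one that stood apart, close to the filter value, and a second probe set gave a difference of 0.35 beside the 0.40 of the first. Epha8 read 7.62 after ethanol and 7.46 after PBS in hippocampus, but 7.42 and 7.54 in forebrain, so that its differences of 0.16 and -0.12 had opposite signs. Among B receptors, Ephb4, known from veins, read 7.34 after ethanol and 7.57 after PBS in hippocampus and 7.51 and 7.61 in forebrain. Ephb6, which lacks kinase activity, read 8.88 after ethanol and 9.07 after PBS in hippocampus and 8.95 on both forebrain arrays. The remaining receptors, Epha4, Epha6, Epha7, Ephb1 and Ephb3, had hippocampal ethanol differences from -0.13 to 0.06 and forebrain differences from -0.08 to 0.02. A second probe set of Ephb1 gave -0.13 in hippocampus and -0.25 in forebrain, where the first gave -0.07 and -0.04.

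**Figure D2:**
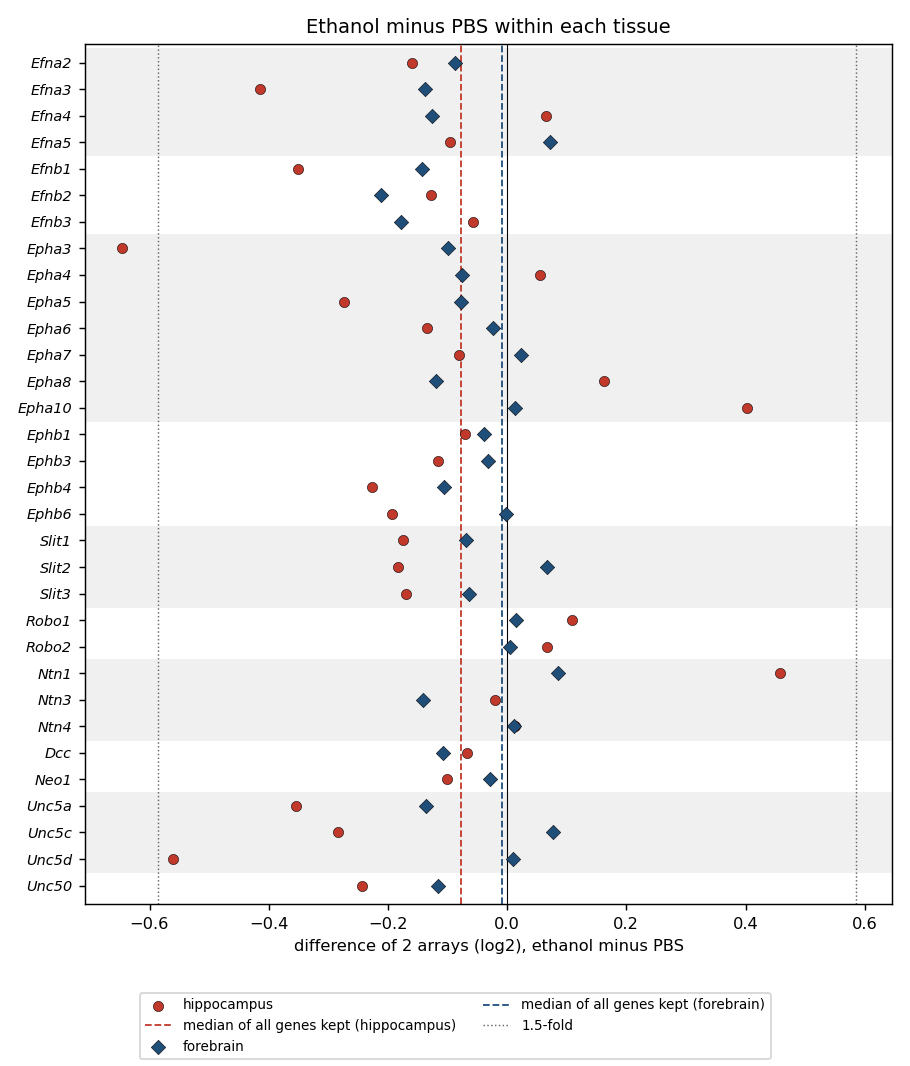
Ethanol minus PBS on the log2 scale (x axis) for each guidance gene kept (rows), as the difference of 2 arrays in hippocampus (circles) and forebrain (diamonds). Dashed lines are the medians over all genes kept (-0.08 and -0.01) and dotted lines mark 1.5-fold. Epha3 at -0.65 lies past the line and Unc5d at -0.56 just inside it, while all forebrain points stay between -0.21 and 0.09.

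The 3 Slit ligand genes, repellents of commissural and cortical axons, were lower after ethanol in hippocampus by nearly equal amounts, as were 69.3% of all genes kept by any amount. They stayed lower (median -0.07) with arrays centred on the genes kept. Slit1 read 8.48 after ethanol and 8.65 after PBS in hippocampus, and 8.75 and 8.81 in forebrain. Slit2 read 8.22 after ethanol and 8.40 after PBS in hippocampus, and 8.89 and 8.83 in forebrain. Slit3 read 7.71 after ethanol and 7.88 after PBS in hippocampus, and 7.86 and 7.92 in forebrain. Their hippocampal differences were -0.17, -0.18 and -0.17, against a median of -0.08 over all genes, and in forebrain -0.07, 0.07 and -0.06. The Robo receptor genes kept differed in the other direction. Robo1 read 11.22 after ethanol and 11.11 after PBS in hippocampus, and 11.08 and 11.07 in forebrain. Robo2 read 11.14 after ethanol and 11.07 after PBS in hippocampus, and 10.98 and 10.97 in forebrain. Both were highest on the hippocampus ethanol array, by 0.11 and 0.07 over PBS, and the sign of their forebrain differences of 0.02 and 0.00 turned after quantile normalization (-0.06 and -0.07).

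In the netrin system, the ligand Ntn1 and its Unc5 receptors differed in opposite directions in hippocampus. Ntn1, the founding netrin, which is attractant or repellent by receptor, read 8.07 after ethanol and 7.61 after PBS in hippocampus, and 7.80 and 7.72 in forebrain. The hippocampus ethanol array was the highest and the difference of 0.46 was the largest positive one among the members kept. Ntn3 read 7.73 after ethanol and 7.75 after PBS in hippocampus, and 7.73 and 7.87 in forebrain. Ntn4, a netrin of basement membranes, read 7.44 after ethanol and 7.42 after PBS in hippocampus, and 7.38 and 7.37 in forebrain. For Ntn4 the arrays hardly differed at all. Dcc is the attractive netrin receptor, and Neo1 is its relative that also binds repulsive guidance molecules. Dcc read 10.20 after ethanol and 10.27 after PBS in hippocampus, and 10.15 and 10.26 in forebrain. Neo1 read 11.00 after ethanol and 11.10 after PBS in hippocampus, and 11.21 and 11.24 in forebrain. Both hippocampus arrays of Neo1 lay below both forebrain arrays, with a limma tissue estimate of -0.17 (SE 0.0493, adjusted p = 0.165).

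All 3 Unc5 receptor genes kept, the repulsive netrin receptors, were lower after ethanol in hippocampus, as were 69.3% of all genes kept. Their median was -0.35, and -0.26 with arrays centred on the genes kept. Unc5d, which also binds Flrt2 on migrating cortical neurons, read 8.65 after ethanol and 9.21 after PBS in hippocampus, and 9.17 and 9.16 in forebrain. The hippocampus ethanol array alone was low, the difference of -0.56 ranked 61 from the lowest, and a second probe set differed by -0.43. Unc5a read 8.11 after ethanol and 8.47 after PBS in hippocampus, and 8.54 and 8.68 in forebrain. Its differences were -0.35 and -0.14. Unc5c, a receptor needed for the migration of cerebellar granule cell precursors, read 7.996 after ethanol and 8.28 after PBS in hippocampus, and 8.75 and 8.68 in forebrain. Both hippocampus arrays lay below both forebrain arrays, and the ethanol differences were -0.28 and 0.08. Unc50, outside the netrin system, read 8.59 after ethanol and 8.84 after PBS in hippocampus and 8.79 and 8.90 in forebrain, so a difference of -0.24 also occurred in a gene that the rule took by its letters alone.

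Members under the filter had means from 5.40 (Epha1) to 7.03 (Robo4). The largest hippocampal ethanol differences among them were 0.49 for Unc5cl, which read 6.33 after ethanol and 5.84 after PBS, 0.28 for Epha2 and 0.27 for Robo3, the receptor of hindbrain commissural axons. In forebrain these 3 genes differed by -0.06, -0.22 and -0.05. Robo4 and Unc5b, both known from endothelial cells, lay just under the filter at 7.03 and 6.98 and differed by 0.09 and -0.04 in hippocampus and by -0.02 and -0.19 in forebrain.

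For each gene the array farthest from the median of the other arrays was noted, and every gene has 1 such array by construction. For 22 of the 32 members kept it was the hippocampus ethanol array, in 17 cases below that median, against 40.2% of all genes kept (33.0% below). Slit2 and Unc5c are among the 22, although both of their hippocampus arrays lay below both forebrain arrays. The count therefore does not show that a difference came from 1 array. The hippocampus PBS array was farthest for 4 members and for 33.3% of all genes. A deviation of the 1 hippocampus ethanol array and an effect of ethanol cannot be told apart.

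Over both tissues, ethanol was tested with limma, with tissue as an additive term and Benjamini-Hochberg adjustment over 11013 genes. At an adjusted p of 0.05, 0 of the 32 members passed in either direction, against 0% of all genes. At an unadjusted p of 0.05, 1 member was higher (Ntn1) and 6 were lower (Epha3, Efna3, Efnb1, Efnb2, Unc5a and Epha5), against 3.41% of all genes higher and 6.36% lower (9.76% in all). The estimates were -0.37 for Epha3 (SE 0.119, limma adjusted p = 0.51), 0.27 for Ntn1 (SE 0.106, limma adjusted p = 0.51) and -0.17 for Efnb2 (SE 0.0593, limma adjusted p = 0.51). In all, 26 members had an estimate below 0 and 6 above it, against 66.9% of all genes below 0 (median -0.08, against -0.04 for all genes). With arrays centred on the genes kept 20 members were below and 12 above (median -0.02, against 0.02 for all genes). With 1 residual degree of freedom, any ethanol response unequal in hippocampus and forebrain enters the error of the fit.

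Between the tissues, 3 guidance genes passed the test. Epha4, a receptor that binds both ephrin classes, was higher in hippocampus than in forebrain, and Efnb3, one of its ligands, and the repellent Slit2 were lower there. Unc5c was about as much lower but missed the threshold. The comparison asks how the dissected regions differ, with treatment as the additive term, and 1.13% of all genes kept were called at an adjusted p of 0.05, 0.109% higher and 1.02% lower in hippocampus, against 1 member higher and 2 lower. Epha4 read 10.79 in hippocampus and 10.15 in forebrain after ethanol, and 10.73 and 10.23 after PBS. With 1 array per treatment in each tissue, the hippocampus values did not overlap the forebrain values. How many of all genes separate in this way was not counted, here or for the other genes described so. After both treatments 21.2% of all genes kept were higher and 38.4% lower in hippocampus. For Epha4 the limma estimate was 0.57 (SE 0.0606, adjusted p = 0.0175). Here and in the other limma tissue comparisons, the error came from how unequal the tissue difference was after ethanol and PBS, together with limma's prior variance. Spread between embryos, litters or dissections was not measured, so these p-values do not rest on replicates. Efnb3 read 8.45 in hippocampus and 8.89 in forebrain after ethanol, and 8.51 and 9.07 after PBS, which limma put at -0.49 (SE 0.0788, adjusted p = 0.0423). Slit2 read 8.22 in hippocampus and 8.89 in forebrain after ethanol, and 8.40 and 8.83 after PBS, with a limma estimate of -0.55 (SE 0.0894, adjusted p = 0.044). In both genes the hippocampus arrays were the low ones after either treatment. For Unc5c, at 7.996 in hippocampus and 8.75 in forebrain after ethanol and 8.28 and 8.68 after PBS, the estimate was -0.58 (SE 0.102, limma adjusted p = 0.0514). The calls depend on the fit: without a trend in limma's prior variance the adjusted p was 0.0573 for Epha4 and 0.0665 for Efnb3 and Slit2. Without the filter on low values it was 0.0715 for Efnb3 and 0.0743 for Slit2.

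**Figure D3:**
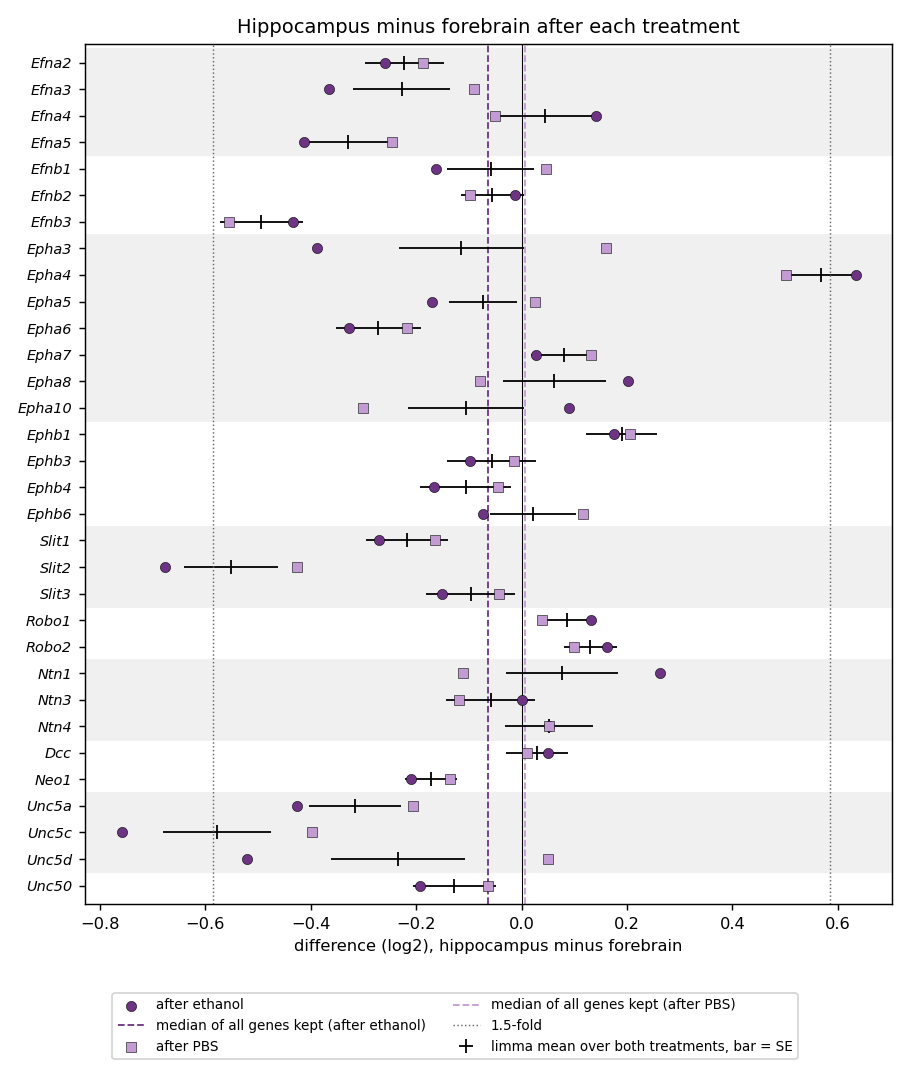
Hippocampus minus forebrain on the log2 scale (x axis) for each guidance gene kept (rows), after ethanol (circles) and after PBS (squares), with limma's mean over both treatments (tick) and its standard error (bar). Epha4 lies at 0.63 and 0.50, Slit2 at -0.68 and -0.43, Unc5c at -0.76 and -0.40 and Efnb3 at -0.43 and -0.55.

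By limma's estimate over both treatments 61.2% of all genes kept were lower in hippocampus, which is the background for the counts by family, none of which was tested. Of the ephrins 6 of 7 were lower in hippocampus (median -0.22), among them Efna5 at -0.33 (SE 0.0845, limma adjusted p = 0.13) and Efna2 at -0.22 (SE 0.0744, limma adjusted p = 0.227), and this count was the same under median centring and quantile normalization. Of the Eph receptors 5 were higher and 6 lower: beside Epha4, Ephb1 was higher at 0.19 (limma adjusted p = 0.247), with both of its probe sets higher after either treatment, while Epha6 stood at -0.27 (limma adjusted p = 0.177). Ephb1 read 9.59 in hippocampus and 9.42 in forebrain after ethanol, and 9.66 and 9.46 after PBS. For Epha6 the values were 8.21 in hippocampus and 8.53 in forebrain after ethanol, and 8.34 and 8.56 after PBS. Slit ligands were lower for 3 of 3, Robo receptors higher for 2 of 2 (Robo2 at 0.13 and Robo1 at 0.09) and Unc5 receptors lower for 3 of 3, in each scaling tried. None of these other members passed the adjusted threshold. At an unadjusted p of 0.05, 3 members were higher in hippocampus (against 3.27% of all genes) and 10 lower (against 11.9%), which together are 13 members, against 15.1%. At 1.5-fold after ethanol, 1 member was higher in hippocampus (Epha4, against 0.154% of all genes) and 2 were lower (Slit2 and Unc5c, against 0.536%). At a log2 difference of 0.32, 9 members were lower (against 5.48%) and 1 higher (against 1.2%), and at 2-fold 0 were lower or higher (against 0.00908% and 0.0363%). After PBS 0 members reached 1.5-fold in either direction, against 0.0908% of all genes higher and 1.19% lower. At a log2 difference of 0.32, 1 was higher (Epha4, against 1.53%) and 3 were lower (against 4.57%). By any amount, 20 members were lower and 12 higher after each treatment, though not all the same genes. Of all genes 69.6% were lower and 30.4% higher after ethanol, and 47.5% lower and 52.4% higher after PBS. After both treatments 15 members were lower and 7 higher, against 38.4% and 21.2% of all genes. Whether the tissue difference itself changed with ethanol was not tested.

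**Figure D4:**
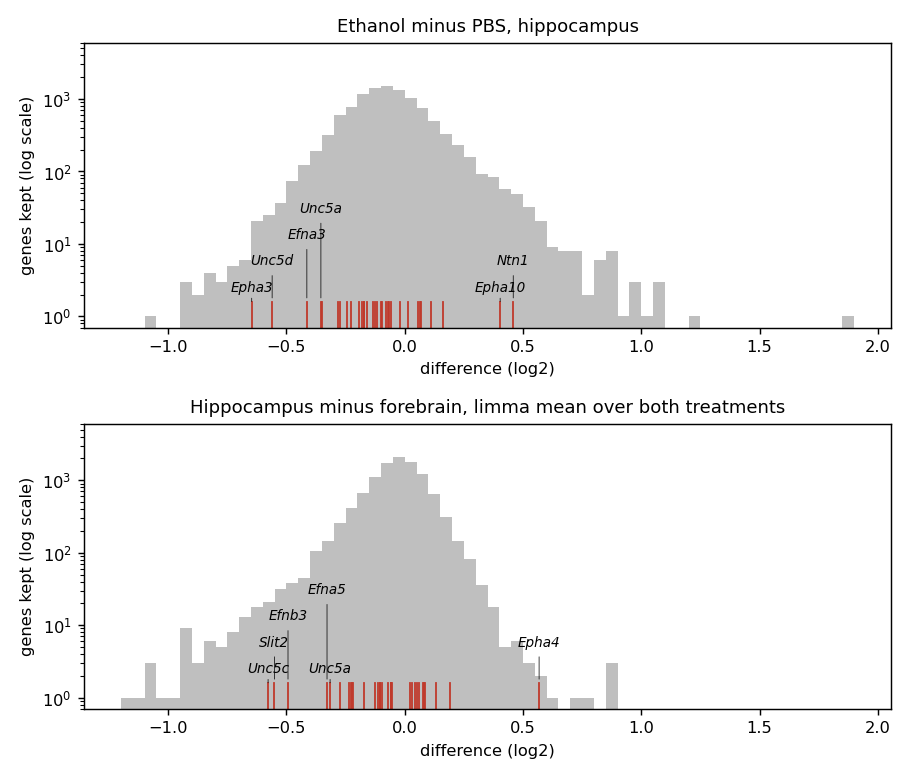
Number of genes kept (y axis, log scale) by their log2 difference (x axis), for ethanol minus PBS in hippocampus (top) and for hippocampus minus forebrain over both treatments (bottom). Red ticks are the 32 guidance genes, and the 6 with the largest absolute difference are named: Epha3 at -0.65 and Ntn1 at 0.46 lie at the ends of the members above, and Unc5c at -0.58 and Epha4 at 0.57 below.

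Partners of these receptors were read from lists chosen beside the members. Of 21 listed names of extracellular partners and membrane regulators 17 were kept, and 12 were lower and 5 higher after ethanol in hippocampus (median -0.09), near the 69.3% of all genes that were lower there. The largest difference was that of Boc, a hedgehog co-receptor that also steers axons, at 7.62 after ethanol and 8.14 after PBS. Draxin, a secreted repellent that binds Dcc, differed by -0.31. Over both tissues 0 of the 17 passed limma's ethanol test, and between the tissues 1 did, the glypican gene Gpc3, which was lower in hippocampus at -0.75 (SE 0.088, limma adjusted p = 0.0203). Among all genes kept 0% passed for ethanol and 1.13% between the tissues. Of 43 listed signalling genes inside the cell 41 were kept, with 29 lower and 12 higher after ethanol in hippocampus (median -0.06), again near the share of all genes. Ablim3, an actin-binding LIM domain protein, read 8.80 after ethanol and 8.33 after PBS, and Ngef, the exchange factor ephexin downstream of EphA receptors, read 8.55 and 8.18. Their differences were 0.48 and 0.37, and 0 of the 41 passed limma in either comparison. For semaphorin, plexin and neuropilin genes, the other large guidance system, 21 of 27 were lower after ethanol in hippocampus (median -0.17), so the median of -0.12 in the ephrin, Slit and netrin families lay between theirs and that of all genes.

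Markers of other cells moved with the same arrays, and their part in the differences above was not tested. As background for the counts, 69.3% of all genes kept were lower and 30.7% higher after ethanol in hippocampus (median -0.08). After ethanol in hippocampus all 14 striatal projection neuron markers kept, of 16 listed, were higher (median 0.44), with a mean of 9.26 after ethanol and 8.84 after PBS in hippocampus and 8.64 and 8.70 in forebrain. Transcription factor genes of cortical excitatory neurons were lower for 13 of 14 kept, of 15 listed (median -0.45), at a mean of 9.57 after ethanol and 9.98 after PBS in hippocampus and 9.68 and 9.76 in forebrain. Choroid plexus markers were lower for 6 of 6 kept, of 8 listed (median -0.34), at 8.25 and 8.64 in hippocampus and 8.21 and 8.16 in forebrain. For thalamus and hypothalamus, 6 of 6 markers kept, of 10 listed, were higher (median 0.32), at 8.10 and 7.64 in hippocampus and 8.25 and 8.06 in forebrain. For the tissue comparison, 61.2% of all genes kept had a limma estimate lower in hippocampus (median -0.03). By limma's test 1.02% of all genes fell and 0.109% rose. Between the tissues, meningeal fibroblast markers were lower in hippocampus for 10 of 10 kept, of 11 listed, and 7 of them fell by limma's test (median -0.91). Their means were 7.77 in hippocampus and 8.41 in forebrain after ethanol, and 7.49 and 8.58 after PBS. Striatal markers were higher in hippocampus for 14 of 14 by the same estimate, and 2 rose by limma's test (median 0.31), with means of 9.26 in hippocampus and 8.64 in forebrain after ethanol and 8.84 and 8.70 after PBS. Choroid plexus markers were higher for 6 of 6, of which 1 rose (median 0.26), and thalamic and hypothalamic ones lower for 6 of 6, of which 0 passed (median -0.27). Endothelial markers were lower for 7 of 8 kept, of 9 listed, with 0 passing (median -0.24). After ethanol in hippocampus, meningeal fibroblast markers were higher for 8 of 10 kept and lower for 2 (median 0.28). Radial glia markers were lower there for 8 of 12 kept, with a median of -0.16 and single genes from -0.61 to 0.19. Endothelial markers were lower for 5 of 8 kept (median -0.07). Microglial markers were higher for 4 of 4 kept, of 8 listed (median 0.04). These 3 medians were smaller in size than those of the other lists in this paragraph.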

How the data were processed

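Expression in 4 groups of 1 array each was analysed. The values are the authors' deposited log2 values: their scale was taken from their range, 1.58 to 13.96, and per the submitters' processing notes MAS5 was used. Its version is not given in the sources used here, nor how background was corrected or arrays were normalized. Gene names came from GEO's platform annotation, which gives 1 symbol for 21789 of 35557 probe sets, several for 1621 and none for 12147, and all 40 member symbols matched a RefSeq table of GRCm38.p6 by gene identifier. Each gene took its probe set with the highest mean, and was kept if that mean was at least 7.11, the median over all probe sets.

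Within a tissue or treatment, 2 arrays were compared by difference and counted at 1.5-fold, without a test. Over all 4 arrays limma 3.58.1 in R 4.3.3 was fitted on all genes kept, with additive terms for treatment and tissue. The prior variance followed a trend (eBayes), and p-values were adjusted by Benjamini-Hochberg and called at 0.05. The rest used Python 3.11.15, numpy 2.4.6, pandas 2.3.3 and matplotlib 3.10.9. The fit was first tested on simulated data with 200 changed genes of 11013, the same ethanol effect in each tissue and equal noise for all genes. It recovered 100% of the changed genes and called 10 unchanged ones. Responses that differ between the tissues were not simulated. The deposited scaling was left as it is, and alternatives were 3 other scalings, filters, folds, probe set means and the prior without a trend.

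Members, lists, markers and the 1.5-fold size were chosen with earlier results of these data known. Values are printed for every Slit, Robo, netrin, Dcc, Neo1 and Unc5 member kept, the 8 Eph or ephrin genes with the largest hippocampal ethanol difference, 4 with the largest forebrain one, 8 with the largest tissue difference, and members called by limma. Per list, up to 5 genes by ethanol and 3 by tissue difference could be named. Efna4, Unc5b, Unc5cl, Robo3, Robo4, Epha1 and Epha2 fall outside this rule and were named with their values seen. Ephb2 was not analysed here.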

Additional observations from a re-analysis of the deposited data

Results flagged for a closer look

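A difference of opposite sign in the compared groups, at least 0.1 on the log2 scale in each, was found for 3 of the guidance genes that passed the filter on low values. With 1 array a group none of these differences between effects was tested. For Epha3 the hippocampus read lower than forebrain after ethanol (-0.39) and higher after PBS (0.16), which makes the tissue differences -0.55 apart. Ntn1 showed the reverse, 0.26 after ethanol and -0.11 after PBS, or 0.37 apart. For Epha8 the ethanol difference was 0.16 in hippocampus and -0.12 in forebrain, a gap of 0.28. Over the alternatives run its forebrain difference ranged from -0.119 to -0.0994, so it does not reach 0.1 in all of them.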

How the results depend on the processing

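No paired analysis was possible because each group has 1 array and the labels carry no replicate numbers. Leaving out an array leaves the limma fit without residual degrees of freedom, so no such value is given, and the pseudocount set aside for linear values was not run because the values are on a log scale. For ethanol in hippocampus, at a log2 difference of 0.32 2 members were higher and 5 lower, and at 2-fold 0 lower. After quantile normalization, or with arrays centred on their medians over the genes kept (an alternative added with the data seen), 0 were 1.5-fold lower, since Epha3 then read -0.58 or -0.55. For hippocampus against forebrain at a log2 difference of 0.32, 1 member was higher and 3 lower after PBS and 9 were lower after ethanol. At 2-fold 0 were higher and 0 lower after ethanol. The 75th percentile filter left 0 lower there at 1.5-fold, because Slit2 and Unc5c fell below it. By limma 4 members were lower in hippocampus after quantile normalization, 3 with each array centred on its median over all probe sets and 3 with the mean over a gene's probe sets (Unc5c added in each), 1 with the 75th percentile filter, 1 with arrays centred over the genes kept and 0 without a filter. Efna5 was the other member called after quantile normalization, at a limma adjusted p of 0.0499, and it was called in 1 of 6 alternatives. Without a trend 0 members were higher and 0 lower. Over the alternatives the limma adjusted p ranged from 0.0011 to 0.0573 for Epha4 (called in 6 of 7), from 0.00814 to 0.0715 for Efnb3 (4 of 7), from 0.0052 to 0.0743 for Slit2 (4 of 6) and from 0.00727 to 0.0885 for Unc5c (3 of 6). The causes were not tested. Leaving out Unc50, also added with the data seen, changed none of the counts of calls, and the tissue differences of Epha4, Efnb3 and Slit2 and the hippocampal ethanol difference of Epha3 kept their sign in the alternatives run.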
